A study of Saccharomyces cerevisiae with 12 samples.

Results

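The cytosolic chaperonin of budding yeast is built from 8 different subunits, each encoded by its own gene, and the mRNAs of these 8 genes were followed here: TCP1 (YDR212W), CCT2 (YIL142W), CCT3 (YJL014W), CCT4 (YDL143W), CCT5 (YJR064W), CCT6 (YDR188W), CCT7 (YJL111W) and CCT8 (YJL008C). The members were taken by their systematic names, without use of any measured value, and all 8 were found among the 7126 features of the count files and among the 6003 genes that passed the filter on low counts. The strains were ΔES27Lb, whose rRNA lacks the b-arm of expansion segment 27 of the large ribosomal subunit, and the wildtype. Both were made in the yeast strain yJD1045, which has no chromosomal rDNA and lives on plasmid-borne rRNA. According to the study's methods, this rRNA was transcribed from a tetracycline-repressible promoter and carried a point mutation for hygromycin resistance, in the wildtype as well. Cultures grew in YPD to an OD of 0.8. Poly(A)-enriched RNA was sequenced from the pooled polysomal fractions of a density gradient (polysomal mRNA) and from whole lysate (total mRNA). This gave 12 libraries in 4 groups of 3: ΔES27Lb polysomal, ΔES27Lb total, wildtype polysomal and wildtype total. The deletion lies in rRNA, which was not analysed here, so the strain of each library rests on its label.

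The chaperonin, called CCT or TRiC, is a pair of stacked rings that closes over a folding polypeptide and opens again with the binding and hydrolysis of ATP. Each ring holds every subunit once, in a fixed order, so the subunits are needed in equal numbers. Its best known clients are actin and the tubulins, and several WD40-repeat proteins of the cell cycle also fold in it. Prefoldin hands over unfolded actin and tubulin to it, and phosducin-like proteins bind to it as helpers. Expansion segment 27 of the large subunit reaches the polypeptide exit tunnel of the ribosome, where factors that modify or fold nascent chains dock, among them the N-terminal acetyltransferase NatA. How strongly an mRNA was loaded with ribosomes was measured as P/T, the ratio of its polysomal to its total level.

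The subunits are related but have diverged far from one another. Over the 28 pairs of proteins translated from the RefSeq R64 coding sequences of S288C, identity ranged from 27.2% for CCT2 and CCT8 to 37.0% for CCT4 and CCT5, with a median of 29.9%. The 8 coding sequences are uninterrupted by introns, 1584 (CCT2) to 1707 (CCT8) bases long, with a GC content from 39.0% (CCT7) to 48.0% (CCT6). CCT3, CCT5, CCT7 and CCT8 lie on chromosome X, TCP1, CCT4 and CCT6 on chromosome IV and CCT2 on chromosome IX, with CCT8 alone on the minus strand. No other R64 gene overlaps any of them. The counts were made on another strain, BY4742, so no coordinates are given. The coding starts are shown because the residue after the initiator methionine decides which acetyltransferase can act on the nascent chain. The first 30 bases of each coding sequence follow, 5′ to 3′, with the second codon in capitals.
TCP1: atgTCCcaattattcaataactcgcgctca
CCT2: atgAGTgtacagatatttggagaccaggtt
CCT3: atgCAAgctccagtggtatttatgaatgct
CCT4: atgTCTgctaaagttccatctaacgccacg
CCT5: atgGCTgctcgtccacaacaacctcctatg
CCT6: atgTCAttgcaattgttgaatccgaaggct
CCT7: atgAACtttggaagccaaacacctacaatt
CCT8: atgTCActtagattgccacaaaatcccaac
The second codon encodes serine in TCP1, CCT2, CCT4, CCT6 and CCT8, alanine in CCT5, glutamine in CCT3 and asparagine in CCT7. Serine and alanine at this place are typical substrates of NatA once the methionine has been removed. Among the 5695 tested genes with an R64 coding sequence that starts with ATG, 25.1% encode serine there, 8.45% alanine, 2.42% glutamine and 5.25% asparagine.

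All 8 genes share a stretch of the nucleotide-binding site, which is shown because it makes their kinship visible. The residues glycine, aspartate, glycine and threonine stand once in each protein, and 0.737% of the tested coding genes encode this run. The codons of these residues are in capitals below, with 18 bases before and 12 bases after them.
TCP1: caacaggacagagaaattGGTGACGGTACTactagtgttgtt
CCT2: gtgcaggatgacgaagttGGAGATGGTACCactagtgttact
CCT3: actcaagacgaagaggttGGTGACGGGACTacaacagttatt
CCT4: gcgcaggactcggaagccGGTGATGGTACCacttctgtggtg
CCT5: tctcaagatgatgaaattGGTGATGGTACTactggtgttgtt
CCT6: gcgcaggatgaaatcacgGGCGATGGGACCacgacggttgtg
CCT7: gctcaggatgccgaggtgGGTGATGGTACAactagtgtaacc
CCT8: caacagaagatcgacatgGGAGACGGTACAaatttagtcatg
The first glycine of the run is residue 95 in TCP1, 89 in CCT2, 90 in CCT3, 90 in CCT4, 116 in CCT5, 88 in CCT6, 95 in CCT7 and 97 in CCT8, counted from 1 at the methionine. The 12 bases are spelled in 8 different ways, so no 2 members share them. The next residue is threonine in 7 members and asparagine in CCT8.

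Each library held 15050764 to 21532842 counts, and the 8 genes together took 0.155% to 0.296% of them. A member had between 2564 and 7061 counts in a library, which puts its counting error at 1.97% or less, so the spread between replicates set the precision. Libraries of the same group differed by more than sampling noise in all 12 comparisons of 2 replicates. The labels do not say that replicates came from separate cultures, so p-values measure only the spread between these samples. Levels are given as CPM, the share of the counts of a library after TMM scaling, so that a ratio of 1 means no change relative to the bulk of the genes.

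All 8 mRNAs were well expressed at levels close to one another. Per kb of coding sequence, the mean over the 12 libraries was 187 ± 35.1 CPM for CCT2, 179 ± 28.4 for CCT4, 170 ± 27.2 for CCT6, 161 ± 33.4 for CCT8, 161 ± 36.3 for CCT3, 150 ± 27.1 for CCT7, 141 ± 23.9 for CCT5 and 123 ± 16.7 for TCP1 (SD, n = 12 libraries). The highest stood 1.51-fold over the lowest. The median over the 5695 genes with a coding length was 37.4 CPM per kb in total mRNA, and the members fell between the percentiles 78.4 (TCP1) and 84.0 (CCT6) of these genes. Of the 7 neighbouring pairs in this order, 6 did not differ beyond their spread, since the mean log2 difference within a library was smaller than its SD over the libraries. The exception was TCP1, which lay 0.20 ± 0.17 below CCT5 on the log2 scale and was lower in 10 of 12 libraries. In polysomal mRNA this gap was 0.25 ± 0.15 (6 of 6 libraries). In total mRNA it was 0.15 ± 0.19 (4 of 6), which is within its spread. TCP1 was the lowest of the 8 in CPM in 11 of 12 libraries, and CCT5 in the third wildtype total library. At the top the order depended on the mRNA pool. CCT2 led in polysomal mRNA with 202 ± 37.1 CPM per kb, beside CCT4 with 190 ± 32.1, and CCT6 led in total mRNA with 172 ± 27.4, beside CCT2 with 172 ± 28.1 (SD, n = 6 libraries).

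The 8 mRNAs moved up and down together from library to library. Their summed level was 1973, 2506 and 2074 CPM in ΔES27Lb polysomal mRNA and 1699, 2230 and 1943 CPM in ΔES27Lb total mRNA. In the wildtype it was 2006, 2513 and 1632 CPM in polysomal mRNA and 2562, 2257 and 1617 CPM in total mRNA. The widest gap was between libraries of the same group, wildtype total, whose replicates 1 and 3 were the highest and the lowest of all 12 and 1.58-fold apart. Over the 12 libraries the Pearson r of a pair of members ranged from 0.51 (TCP1 and CCT2) to 0.96 (CCT3 and CCT8), with a median of 0.83 over the 28 pairs. These correlations describe libraries that share strain, pool and scaling. The mean log2 CPM of the 8 had an SD of 0.234 over the libraries, while the log2 ratio of a single member to that mean had an SD between 0.067 (CCT7) and 0.170 (CCT2). For scale, the median gene among the 5152 whose mean log2 CPM reached 3 had an SD of 0.403 in its log2 CPM. The 8 members' own values ran from 0.194 (TCP1) to 0.312 (CCT3).

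**Figure D1:**
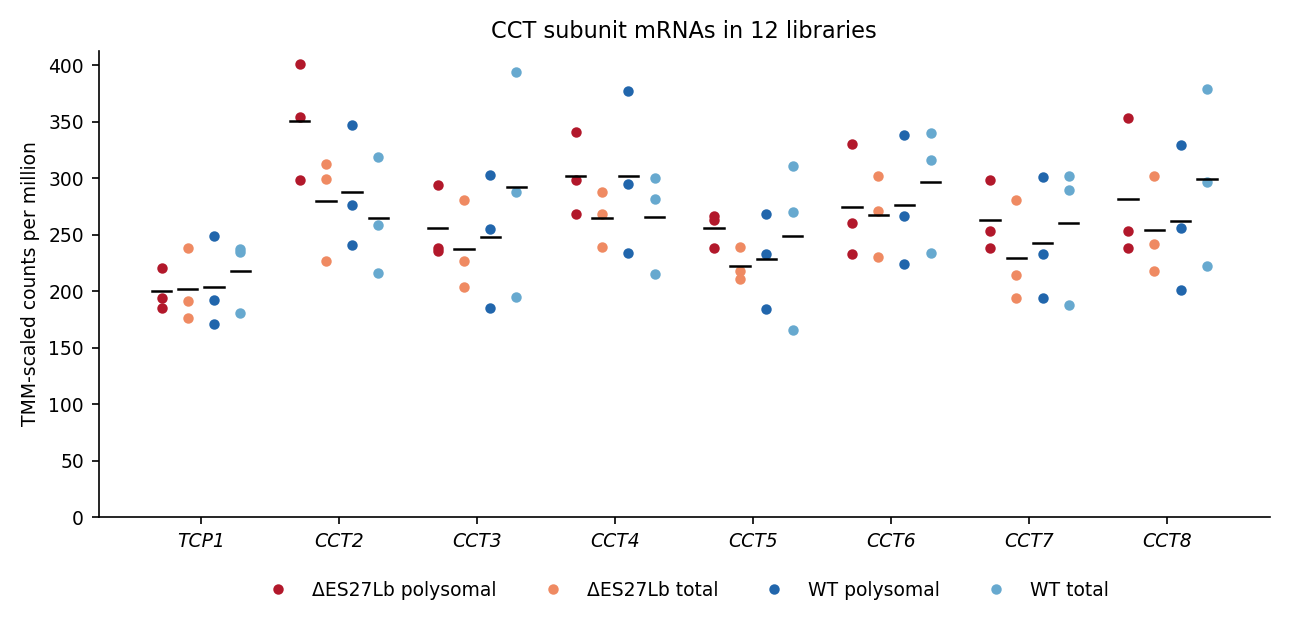
CPM of the 8 CCT mRNAs (vertical axis, TMM-scaled, from 0) in the 12 libraries, with 3 points per group and the group mean as a bar. TCP1 sits at the bottom in most libraries and CCT2 reaches 401 CPM in ΔES27Lb polysomal mRNA, and the strains overlap for each member in both pools.

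The genes whose levels followed the CCT mean most closely over the 12 libraries were looked up among the other 5995 tested genes. They were GCD11, the gamma subunit of translation initiation factor eIF2 (r = 0.947), RVB1, an ATPase of chromatin remodelling and snoRNP assembly (r = 0.935), CBF5, the pseudouridine synthase of H/ACA snoRNPs (r = 0.934), YDR341C, the cytosolic arginyl-tRNA synthetase (r = 0.931), and CIA1, which serves in the assembly of cytosolic iron-sulfur proteins (r = 0.928). The members' own r with their mean lay between 0.786 for CCT2 and 0.973 for CCT7. The median of the other genes was -0.04. These are the highest of 5995 values and are given as a description.

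The first comparison asked how strongly the CCT mRNAs were loaded with ribosomes in ΔES27Lb. CCT2, the beta subunit, which sits between Cct4 and Cct5 in the ring, had the highest P/T of the 8. It had 298, 401 and 354 CPM in ΔES27Lb polysomal mRNA, against 227, 299 and 313 CPM in ΔES27Lb total mRNA. Each polysomal library exceeded the total library of the same replicate number, although the 2 sets of values overlapped. The fitted log2 P/T was 0.33 ± 0.24 (SE, n = 3 libraries each) with an adjusted p of 0.48 by edgeR. TCP1, the alpha subunit and the first of the family to be named, lay at the other end, with 194, 221 and 185 CPM in polysomal mRNA, against 176, 238 and 191 CPM in total mRNA. Its fitted log2 P/T was -0.01 ± 0.23, with 1 of 3 replicate pairs above 0, a replicate pair being the polysomal and the total library of 1 strain with the same replicate number. The 6 other members had fitted log2 P/T of 0.11 (CCT3, gamma), 0.19 (CCT4, delta), 0.20 (CCT5, epsilon), 0.04 (CCT6, zeta), 0.20 (CCT7, eta) and 0.15 (CCT8, theta), with SE from 0.24 to 0.29.

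None of the 8 passed the test in ΔES27Lb. By edgeR 0 of 8 had an adjusted p of 0.05 or less, beside 0% of all 6003 genes, and 0 of 8 had an unadjusted p of 0.05 or less, beside 15.0% of all genes. By DESeq2 0 of 8 passed, beside 1.57% of all genes. Replicate numbers were taken to pair the polysomal and total libraries of a strain. With them as a block 0 of 8 passed by edgeR, beside 6.96% of all genes, the smallest adjusted p being 0.19 for CCT2. The median of the 8 was 0.17 on the log2 scale and that of all genes -0.06, and 7 of the 8 were above 0, beside 45.2% of all genes. The 95% intervals of the 8 ran from -0.51 to 0.86, with upper bounds from 0.48 (TCP1) to 0.86 (CCT2), and each included 0.

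In the wildtype the same mRNAs were spread around a P/T of 1. CCT3, the gamma subunit, had 255, 303 and 185 CPM in wildtype polysomal mRNA, against 394, 288 and 195 CPM in wildtype total mRNA. The first total library stood far above the other 5. Its fitted log2 P/T was -0.24 ± 0.29 (SE, n = 3 libraries each) with an adjusted p of 0.60 by edgeR. CCT4, the delta subunit, lay at the other end, with 295, 377 and 234 CPM in polysomal mRNA, against 282, 300 and 215 CPM in total mRNA, and was higher in polysomal mRNA in 3 of 3 replicate pairs. Its fitted log2 P/T was 0.18 ± 0.24, with an adjusted p of 0.63. The other members had fitted log2 P/T of -0.09 (TCP1), 0.12 (CCT2), -0.12 (CCT5), -0.10 (CCT6), -0.10 (CCT7) and -0.19 (CCT8).

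In the wildtype 0 of 8 members passed by edgeR, beside 0.117% of all genes, and 0 of 8 had an unadjusted p of 0.05 or less, beside 28.5% of all genes. By DESeq2 0 of 8 passed, beside 12.8% of all genes, and with the replicate block 0 of 8 passed, beside 32.5% of all genes. The median of the 8 was -0.10 on the log2 scale, beside -0.06 for all genes. The negative fitted values depended on the first wildtype replicate. The third wildtype pair was also below 0 for TCP1 (-0.09), CCT3 (-0.08), CCT6 (-0.07) and CCT8 (-0.14), and above 0 for the other 4. Without the first wildtype replicate all 8 fitted values were above 0, from 0.04 to 0.34 with a median of 0.08, and 0 of 8 passed.

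Taken by replicate pair, the median log2 P/T of the 8 members was 0.19, 0.15 and 0.11 in the ΔES27Lb pairs, against -0.36, 0.08 and -0.01 in the wildtype pairs. The first wildtype pair stood apart from the other 5, and it was the lowest of the 6 pairs for each member. CCT5 had 0.17, 0.16 and 0.27 in ΔES27Lb, against -0.42, -0.01 and 0.15 in the wildtype. CCT7 had 0.38, 0.09 and 0.15 in ΔES27Lb, against -0.38, 0.05 and 0.05 in the wildtype. The pairs of the strains did not overlap for these 2 members of 8, beside 7.51% of all genes. For the other 6 they overlapped, and the means over the pairs ranged from -0.01 ± 0.13 (TCP1) to 0.33 ± 0.13 (CCT2) in ΔES27Lb and from -0.21 ± 0.37 (CCT3) to 0.17 ± 0.14 (CCT4) in the wildtype (SD, n = 3).

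**Figure D2:**
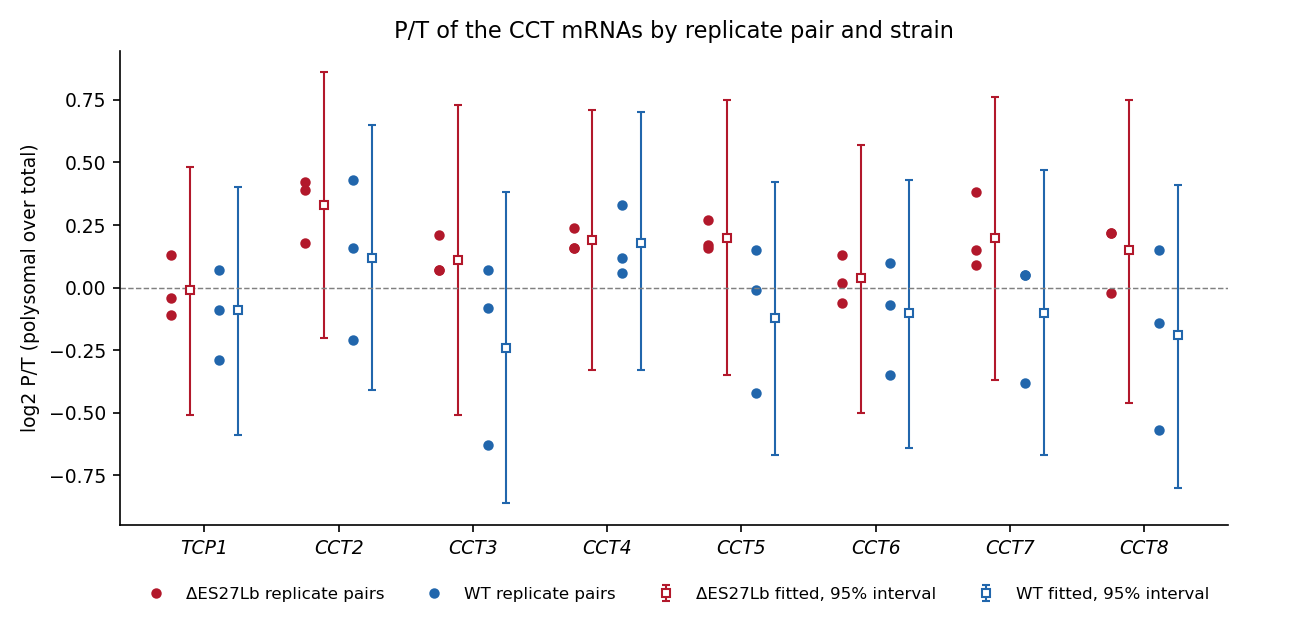
Log2 P/T (vertical axis, polysomal over total) of the 8 CCT mRNAs, ΔES27Lb in red to the left and wildtype in blue to the right. Filled points are single replicate pairs, open squares the edgeR estimate with its 95% interval; every interval includes 0, and the lowest wildtype point of each gene is the first replicate pair.

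The difference between the strains in P/T was fitted directly. It was above 0 for all 8 members, from 0.01 ± 0.34 for CCT4 to 0.35 ± 0.40 for CCT3 on the log2 scale (SE, n = 3 libraries per group), with 0.20 for CCT2, 0.32 for CCT5, 0.30 for CCT7, 0.34 for CCT8, 0.14 for CCT6 and 0.08 for TCP1. The median of the 8 was 0.25, beside 0.00 for all genes, of which 49.6% were above 0. By edgeR 0 of 8 passed, beside 0% of all genes, each with an adjusted p of 1.0, and 0 of 8 had an unadjusted p of 0.05 or less, beside 0.766% of all genes. By DESeq2 0 of 8 passed, beside 0.0167% of all genes, and with the replicate block 0 of 8 passed, beside 0% of all genes. Without the block the 95% intervals ran from -0.72 to 1.23, so equal P/T in the strains lay within each of them. A log2 difference of 1.0 lay within those of CCT3, CCT5, CCT7 and CCT8. With the block the upper bounds of these members were 0.86, 0.79, 0.80 and 0.86, so 1.0 lay above them, and each interval still included 0. Without the first wildtype replicate the difference shrank to between -0.03 and 0.17 with a median of 0.09, and was above 0 for 7 of 8 members. The 8 values share the same libraries and move together, so their common sign is not 8 separate observations.

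In total mRNA the strains overlapped in the levels of every CCT gene. CCT3 had 204, 281 and 227 CPM in ΔES27Lb, against 394, 288 and 195 CPM in the wildtype, and CCT8 had 218, 302 and 242 CPM in ΔES27Lb, against 379, 297 and 222 CPM in the wildtype. The wildtype values were the wider set and enclosed those of ΔES27Lb in CCT3. These 2 members had the most negative fitted differences, -0.30 ± 0.29 and -0.24 ± 0.28 on the log2 scale, and CCT2 the only positive one, 0.08 ± 0.24 (SE, n = 3 libraries each). By edgeR 0 of 8 members passed, beside 0% of all genes, and 0 of 8 had an unadjusted p of 0.05 or less, beside 5.85% of all genes. By DESeq2 0 of 8 passed, beside 0.0666% of all genes. No member had groups that did not overlap, beside 8.06% of all genes. The median of the 8 was -0.16, beside 0.00 for all genes, and was -0.03 without the first wildtype replicate.

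In polysomal mRNA CCT2 again had the highest value. It had 298, 401 and 354 CPM in ΔES27Lb, against 276, 347 and 241 CPM in the wildtype, and the groups overlapped. Its fitted log2 difference was 0.28 ± 0.24, with an adjusted p of 1.0 by edgeR and an interval from -0.25 to 0.82. The other 7 lay between -0.03 (TCP1) and 0.16 (CCT5), and the median of the 8 was 0.08, beside -0.01 for all genes. By edgeR 0 of 8 passed, beside 0% of all genes, and 0 of 8 had an unadjusted p of 0.05 or less, beside 1.22% of all genes. By DESeq2 0 of 8 passed, beside 0.0666% of all genes, and no member had groups that did not overlap, beside 5.61% of all genes.

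Because the members moved together, each was also set against the mean of the 8 in the same library, which removes what they share. In these ratios CCT2 stood out by its values. Its log2 ratio to the mean was 0.38 ± 0.10 in ΔES27Lb polysomal mRNA, against 0.19 ± 0.05 in wildtype polysomal mRNA, and 0.20 ± 0.16 in ΔES27Lb total mRNA, against 0.00 ± 0.11 in wildtype total mRNA (SD, n = 3). The polysomal ranges were 0.28 to 0.47 in ΔES27Lb and 0.15 to 0.25 in the wildtype. The ranges of the strains did not overlap in either pool, though in total mRNA they met at 0.10. In polysomal mRNA the same held for CCT6, with 0.02 ± 0.08 in ΔES27Lb, against 0.12 ± 0.02 in the wildtype, where the ranges also met at 0.10, and in total mRNA for no other member. Non-overlapping ratios to the CCT mean were found in 3.15% of the other 5995 genes in polysomal and 5.24% in total mRNA. Unlike the members, these genes are not part of that mean, so the shares are only a rough scale. An exact permutation test of 3 against 3 libraries cannot give a two-sided p below 0.10, which was its value for CCT2 in both pools and for CCT6 in polysomal mRNA, over 16 such comparisons.

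Polysomal and total mRNA of the same replicate pair also held the members in slightly different proportions. The ratio of CCT2 to the mean of the 8 was higher in polysomal mRNA in 6 of 6 pairs, by 0.18 ± 0.09 in ΔES27Lb and 0.19 ± 0.08 in the wildtype on the log2 scale (SD, n = 3). CCT4 was higher in 5 of 6 pairs, by 0.04 ± 0.07 in ΔES27Lb and 0.23 ± 0.16 in the wildtype. CCT6 was lower in 6 of 6 pairs, by -0.12 ± 0.09 in ΔES27Lb and -0.05 ± 0.04 in the wildtype, and TCP1 was lower in 5 of 6. Among the other genes 14.8% were higher and 23.6% lower against the CCT mean in 6 of 6 pairs. These genes are not part of that mean while each member is, so the shares cannot show whether the members' counts are unusual.

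**Figure D3:**
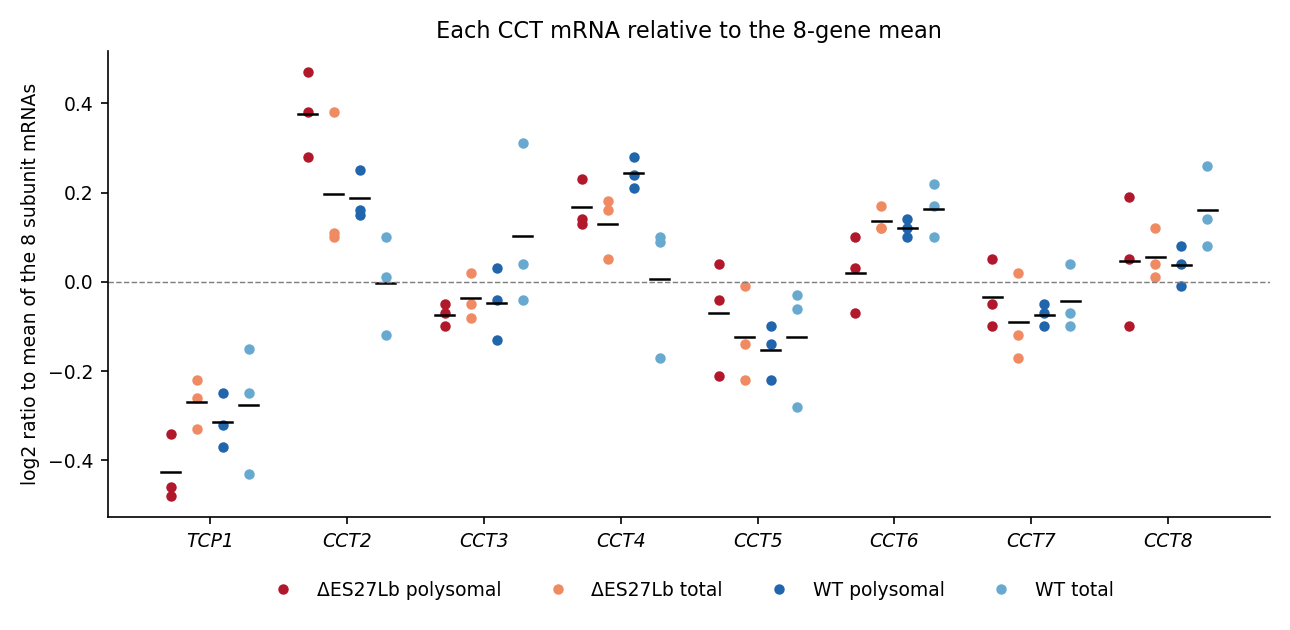
Log2 ratio of each CCT mRNA to the mean of the 8 in the same library (vertical axis), with 3 points per group and the group mean as a bar. CCT2 is highest in ΔES27Lb polysomal mRNA at 0.28 to 0.47, TCP1 is below 0 in every library, and CCT7 varies least.

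Genes that work with the chaperonin were described beside it. Prefoldin, the jawed co-chaperone that delivers actin and tubulin, has 6 subunits (YKE2, PAC10, GIM3, GIM4, GIM5 and PFD1). Its mRNAs had a median log2 P/T of 0.39 in ΔES27Lb and 0.72 in the wildtype, above the CCT medians of 0.17 and -0.10. Over the fits without 1 ΔES27Lb replicate the prefoldin median in ΔES27Lb ran from 0.12 to 0.53, with the lower value without ΔES27Lb replicate 2. Over those without 1 wildtype replicate the wildtype median ran from 0.59 to 0.97. PAC10 had the largest value of the list in both strains. It had 138, 230 and 208 CPM in ΔES27Lb polysomal mRNA, against 108, 101 and 152 CPM in ΔES27Lb total mRNA. In the wildtype it had 195, 166 and 142 CPM in polysomal mRNA, against 67.6, 87.8 and 77.9 CPM in total mRNA, and these groups did not overlap. Its log2 P/T was 0.68 ± 0.26 in ΔES27Lb (adjusted p 0.29, edgeR) and 1.11 ± 0.26 in the wildtype (adjusted p 0.088, edgeR).

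By edgeR no prefoldin gene passed in ΔES27Lb (0 of 6, beside 0% of all genes) or in the wildtype (0 of 6, beside 0.117%). DESeq2 called 3 of 6 in the wildtype, beside 12.8% of all genes: YKE2 (adjusted p 0.027), PAC10 (0.0035) and GIM5 (0.042). With the replicate block 5 of 6 rose in polysomal over total mRNA in the wildtype, with GIM4 the exception at 0.18 ± 0.18. Of all genes 16.9% were called higher in that fit and 32.5% in either direction. In ΔES27Lb 0 of 6 passed with the block, beside 6.96% of all genes, and PAC10 had an adjusted p of 0.066 by edgeR. Leaving out 1 wildtype replicate as well, 3 or 4 of 6 passed in the wildtype, beside 14.4% to 23.8% of all genes. With offsets for coding length and GC content added to the block, 0 of 6 passed in the wildtype, beside 0% of the 5695 genes in that fit, and the 6 values ran from -0.02 for GIM3 to 0.77 for PFD1. Prefoldin coding sequences are 330 to 600 bases long and those of CCT 1584 to 1707, and the part of this difference in the result was not tested further. The strain difference in P/T was below 0 for all 6, with a median of -0.37, and 0 of 6 passed, beside 0% of all genes. It was largest for YKE2 at -0.51 ± 0.43. Without the first wildtype replicate the 6 lay between -0.22 and -0.06 with a median of -0.16, and with block and offsets GIM3 was at 0.11. In total mRNA 0 of 6 passed, beside 0% of all genes, with the largest difference for PAC10 at 0.63 ± 0.26 and a median of 0.50, which was 0.32 without the first wildtype replicate. In polysomal mRNA 0 of 6 passed, beside 0%, with the largest for GIM5 at 0.20 ± 0.28 and a median of 0.12, which ran from -0.01 to 0.32 over the fits without 1 replicate.

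The phosducin-like helper PLP2, which is essential and acts in actin folding, had P/T values above 0 on the log2 scale in each replicate pair of both strains. PLP2 had 165, 173 and 192 CPM in ΔES27Lb polysomal mRNA, against 127, 106 and 137 CPM in ΔES27Lb total mRNA, and 188, 162 and 145 CPM in wildtype polysomal mRNA, against 135, 105 and 87.6 CPM in wildtype total mRNA. Polysomal and total values did not overlap in either strain. The log2 P/T of PLP2 was 0.52 ± 0.22 in ΔES27Lb and 0.59 ± 0.22 in the wildtype, with adjusted p of 0.32 and 0.12 by edgeR. With the block PLP2 rose in polysomal mRNA in the wildtype (0.60 ± 0.15, adjusted p 0.016, edgeR), while in ΔES27Lb its adjusted p was 0.058. Of all genes 16.9% were called higher in the wildtype and 32.5% in either direction. With offsets for coding length and GC content added the wildtype call was lost (0.39 ± 0.13, adjusted p 0.10, edgeR), beside 0% of the 5695 genes in that fit. Without 1 wildtype replicate the call held in 1 of 3 fits with the block, beside 14.4% to 23.8% of all genes called. The strain differences of PLP2 were 0.18 ± 0.22 in total and 0.10 ± 0.22 in polysomal mRNA, and its strain difference in P/T was -0.08 ± 0.31, none of them called by edgeR.

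The clients of the chaperonin were not called in either strain. ACT1, which encodes actin, had 2120, 2140 and 2610 CPM in ΔES27Lb polysomal mRNA, against 1650, 1760 and 2100 CPM in ΔES27Lb total mRNA, and 2310, 2560 and 2700 CPM in wildtype polysomal mRNA, against 1850, 1660 and 2070 CPM in wildtype total mRNA. All 6 polysomal values were above all 6 total values. Its log2 P/T was 0.32 ± 0.23 in ΔES27Lb and 0.44 ± 0.23 in the wildtype, with adjusted p of 0.47 and 0.22 by edgeR. TUB1, the major alpha-tubulin gene, had 0.32 ± 0.24 in ΔES27Lb and 0.31 ± 0.24 in the wildtype, and TUB2, the only beta-tubulin gene, had 0.25 ± 0.22 in ΔES27Lb and 0.18 ± 0.22 in the wildtype. Over the 7 clients the median was 0.25 in ΔES27Lb and 0.18 in the wildtype, and 0 of 7 passed by edgeR in any of the 5 comparisons, beside 0.117% of all genes for P/T in the wildtype and 0% in the others. With the block 0 of 7 passed as well, beside 6.96% of all genes for P/T in ΔES27Lb, 32.5% for P/T in the wildtype and 0% in the others. For the strain differences in total and polysomal mRNA the block joined libraries of both strains by replicate number. TUB1 had the largest P/T change of the list in ΔES27Lb, and WD40-repeat clients had the largest in the other comparisons. CDH1, an activator of the anaphase-promoting complex, had a log2 P/T of -0.44 ± 0.20 in the wildtype, a strain difference in P/T of 0.43 ± 0.28 and a strain difference in total mRNA of -0.46 ± 0.20. Without the first wildtype replicate these CDH1 values were -0.22, 0.26 and -0.23. CDC20, another activator of that complex, had a strain difference in polysomal mRNA of 0.29 ± 0.26.

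The 6 tubulin folding cofactors, which take over tubulin after it leaves the chaperonin, were divided. The median log2 P/T was -0.01 in ΔES27Lb and 0.23 in the wildtype, and 0 of 6 passed by edgeR in any of the 5 comparisons, beside 0.117% of all genes for P/T in the wildtype and 0% in the others. CIN1, the yeast cofactor D, had the largest P/T change of the list. It had 18.2, 17.3 and 16.4 CPM in ΔES27Lb polysomal mRNA, against 23.3, 31.7 and 20.5 CPM in ΔES27Lb total mRNA, and 15.1, 18.9 and 14.8 CPM in wildtype polysomal mRNA, against 26.8, 26.5 and 26.8 CPM in wildtype total mRNA. Polysomal values lay below total values without overlap in both strains. Its log2 P/T was -0.54 ± 0.20 in ΔES27Lb and -0.72 ± 0.20 in the wildtype. With the block CIN1, alone among the 6, fell in polysomal mRNA in the wildtype (adjusted p 0.018, edgeR). Of all genes 15.6% were called lower in that fit and 32.5% in either direction. DESeq2 also called CIN1 lower in the wildtype, at -0.69 (adjusted p 0.027), beside 6.53% of all genes called lower and 12.8% in either direction. With offsets for coding length and GC content added to the block CIN1 was at -0.21 ± 0.14 (adjusted p 0.35, edgeR). The call was lost, beside 0% of the 5695 genes called in that fit. Without 1 wildtype replicate the call held in 1 of 3 fits with the block, beside 14.4% to 23.8% of all genes called. RBL2, cofactor A, had the largest strain difference in P/T, -0.35 ± 0.39, and the largest in total mRNA, 0.40 ± 0.28, while PAC2, cofactor E, had the largest in polysomal mRNA, -0.27 ± 0.34. Over the fits without 1 replicate the RBL2 values ran from -0.64 to -0.02 and from 0.09 to 0.56, and that of PAC2 from -0.62 to -0.10. The P/T difference of RBL2 was -0.02 without the first wildtype replicate and 0.08 with block and offsets.

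The mitochondrial chaperonin, HSP60 with its lid HSP10, is the other chaperonin of the yeast cell and belongs to a different family of rings. Of the pair HSP10 moved most between pools, with a log2 P/T of 0.53 ± 0.53 in ΔES27Lb and 1.07 ± 0.53 in the wildtype. It had 879, 1170 and 953 CPM in ΔES27Lb polysomal mRNA, against 623, 518 and 940 CPM in ΔES27Lb total mRNA, and 1260, 777 and 1990 CPM in wildtype polysomal mRNA, against 207, 490 and 1210 CPM in wildtype total mRNA. Its wildtype total values were spread more widely than those of any CCT gene in any group, and polysomal and total values overlapped in both strains. Neither passed by edgeR in any of the 5 comparisons (0 of 2), beside 0.117% of all genes for P/T in the wildtype and 0% in the others. With the block HSP10 rose in polysomal mRNA in the wildtype (1.30 ± 0.37, adjusted p 0.024, edgeR). Of all genes 16.9% were called higher in that fit and 32.5% in either direction. With offsets added the call was lost (0.68 ± 0.23, adjusted p 0.10, edgeR), beside 0% of the 5695 genes in that fit. Without 1 wildtype replicate the call held in 2 of 3 fits with the block, beside 14.4% to 23.8% of all genes called. The strain difference in P/T of HSP10 was -0.55 ± 0.74, and -0.13 without the first wildtype replicate. Its strain difference in polysomal mRNA was -0.42 ± 0.53, and ran from -0.72 to 0.00 over the fits without 1 replicate. In total mRNA HSP60 was at -0.13 ± 0.42 and HSP10 at 0.12, against -0.37 for HSP60 and -0.29 for HSP10 without the first wildtype replicate, and without the third wildtype replicate both were above 0, at 0.52 and 1.0.

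**Figure D4:**
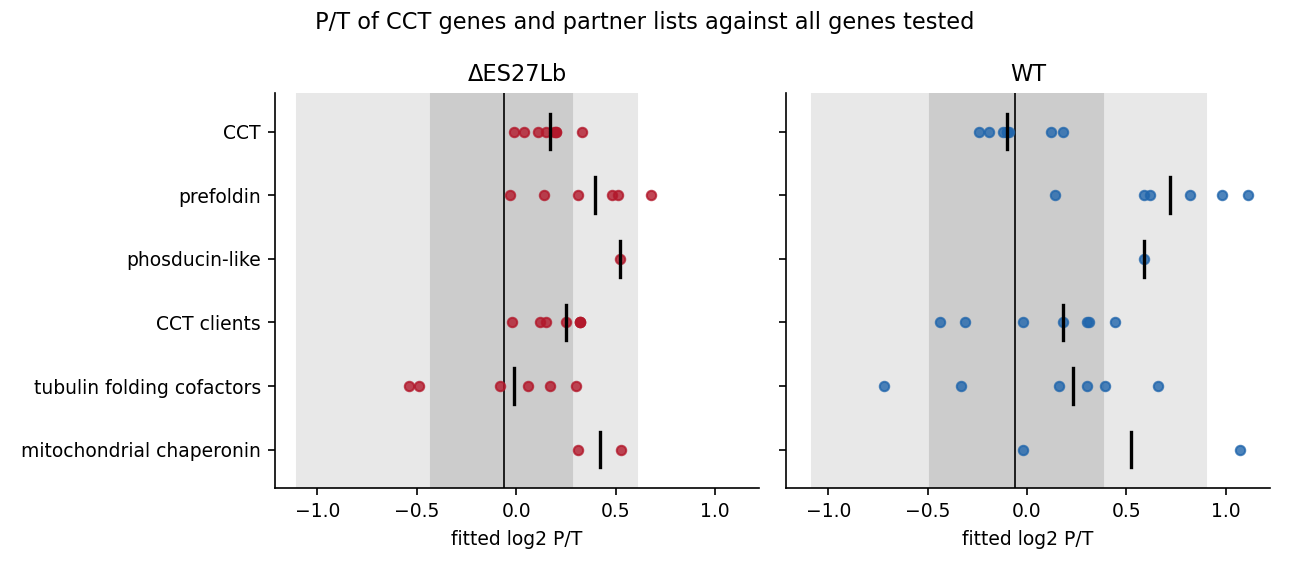
Fitted log2 P/T (horizontal axis) of each gene in the CCT list and its partners (PLP2 alone as phosducin-like), ΔES27Lb at left and wildtype at right, with the list median as a black bar. The light band spans the 5th to 95th and the dark band the 25th to 75th percentile of all 6003 genes. The CCT genes stay within the light band in both strains, with medians of 0.17 and -0.10, and CCT2 in ΔES27Lb lies right of the dark band at 0.33. Prefoldin has higher medians of 0.39 and 0.72, but the lists overlap. Its lowest gene, GIM4, lies at -0.03 in ΔES27Lb and 0.14 in the wildtype.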

How the data were processed

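The authors aligned reads to BY4742 with HISAT2 and counted them per feature with featureCounts; versions, annotation and strand setting are not given in the sources used here. The deposited values are raw counts per gene in 12 libraries, from 15050764 to 21532842 per library.

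Counts were tested with the quasi-likelihood test of edgeR 4.0.16 in R 4.3.3, in 1 fit of all 12 libraries with 1 mean per strain and mRNA pool, TMM scaling and the default filter (6003 of 7126 features). P-values were adjusted over all 6003 genes by the Benjamini-Hochberg method and called at 0.05 or less. Intervals are 95% and based on the t distribution. P/T of a replicate pair used a prior count of 0.5. R64 was matched by systematic name for 6048 features, and lengths and GC content were known for 94.9% of tested genes. Proteins were aligned globally with Biopython 1.88 (BLOSUM62, gap costs 11 and 1).

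To check whether replicate numbers pair libraries, deviations from group means were correlated over 5152 genes. For polysomal and total libraries of a strain r was 0.50, 0.20 and 0.72 in ΔES27Lb and 0.40, 0.68 and 0.90 in the wildtype, so the numbers were taken to pair them. Between strains it was 0.19 to 0.43 in total and -0.11 to 0.55 in polysomal mRNA. Blocked fits of the strain differences within a pool nevertheless joined the strains by replicate number, a pairing that these values do not establish. The fit was tested on simulated data for P/T in ΔES27Lb (5947 genes, 200 of them changed). It recovered 99.5% without false calls, and with the block 100% with 14 false calls. The size and the spread set for those genes are not stated here, and sensitivity in the measured libraries was not tested. In the measured libraries the fit without the block called 0 of 6003 genes for P/T in ΔES27Lb. Recovery of differences as small as those fitted for the CCT genes was not tested.

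The members were taken by systematic name and no measured value entered that choice. Earlier results of these data were nevertheless known when the members and the partner lists were chosen. All 8 members were named, for each list the gene with the largest change per comparison, and ACT1, TUB1, TUB2 and PLP2. A further partner gene is not reported here. The genes most alike were the 5 with the highest Pearson r with the CCT mean. GIM3, GIM4 and PFD1 were named after their values were seen. Alternatives were DESeq2 1.42.0, its size factors in edgeR, other filters, fewer libraries, a replicate block, the block with loess offsets for coding length and GC content, and each replicate left out.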

Additional observations from a re-analysis of the deposited data

How the results depend on the processing

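In each of 68 alternative fits 0 of 8 CCT genes were called, and the smallest adjusted p of a member in any fit, by edgeR with the block and offsets, was 0.16. Counts over all genes moved more. By DESeq2 94 genes were called for P/T in ΔES27Lb (0 by edgeR), 769 for P/T in the wildtype (7 by edgeR), 1 for the difference in P/T, 4 in total mRNA and 4 in polysomal mRNA. With the replicate block, that is with polysomal and total libraries paired, 418 and 1950 genes were called for P/T in ΔES27Lb and the wildtype. With length and GC offsets added 0 were called in the wildtype, and 3 with only the libraries compared. These offsets moved the median log2 P/T of all genes to 0.06 in both strains, against -0.06 in ΔES27Lb and -0.04 in the wildtype with the block alone, and the CCT median was then 0.20 in ΔES27Lb and 0.08 in the wildtype. Without the block, leaving out 1 replicate gave 0 to 4 calls for P/T in the wildtype. With the block, in fits chosen after seeing the data, it gave 872 to 1441 calls in the wildtype, and in ΔES27Lb the 418 calls became 2, 0 and 0 without ΔES27Lb replicates 1, 2 and 3 in turn.

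Of 448 alternative log2 values of members 41 changed sign and 0 were called. P/T of TCP1 in ΔES27Lb was 0.04 with DESeq2 or its size factors and 0.07 with block and offsets. With block and offsets P/T in the wildtype was 0.08 for TCP1, 0.08 for CCT5 and 0.10 for CCT7, and the difference in P/T was -0.01 for TCP1 and -0.05 for CCT4. CCT6 in polysomal mRNA was 0.00 with DESeq2 or its size factors.

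Leaving out 1 replicate, P/T in ΔES27Lb ranged from -0.08 to 0.05 for TCP1 and from -0.02 to 0.10 for CCT6. P/T in the wildtype ranged from -0.19 to 0.04 (TCP1), -0.04 to 0.34 (CCT2), -0.41 to 0.05 (CCT3), -0.21 to 0.09 (CCT5), -0.22 to 0.07 (CCT6), -0.20 to 0.09 (CCT7) and -0.39 to 0.07 (CCT8), the upper value each time without the first wildtype replicate. The difference in P/T of CCT4 ranged from -0.03 to 0.10. In total mRNA CCT2 ranged from -0.04 to 0.24, CCT4 from -0.13 to 0.10 and CCT5 from -0.38 to 0.04. In polysomal mRNA TCP1 ranged from -0.12 to 0.13, CCT3 from -0.10 to 0.21, CCT4 from -0.13 to 0.19, CCT6 from -0.15 to 0.15 and CCT8 from -0.08 to 0.29. The cause of these changes was not tested. Beyond the partner genes named above, the block changed no call of a listed gene, and none of a CCT gene.

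The order per coding length spanned 1.51-fold with DESeq2 size factors, 1.67-fold in polysomal and 1.38-fold in total mRNA. With 3 libraries a group, only the spread between replicates limits the members, since each had at least 2564 counts.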
